A study of Homo sapiens with 8 samples.

Results

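The 46 genes described here encode the parts of the Wnt signalling pathway, from secreted ligands to the transcription factors at its end. They were taken by gene symbol from the 60234 genes of a deposited expression table, and each symbol had 1 identifier. The members were 6 ligands, 1 ligand-modifying enzyme, 15 receptors and co-receptors, 8 extracellular inhibitors, 2 membrane E3 ligases, 6 cytoplasmic transducers, 4 destruction complex genes and 4 TCF/LEF factors. All 8 libraries came from Rh41, a long-established human line derived from an alveolar rhabdomyosarcoma, which is a sarcoma whose cells resemble immature muscle. Every library, controls included, came from cells positive for the PAX3-FOXO1 fusion, which encodes a chimeric transcription factor. Of the libraries, 4 were labelled control and 4 were labelled siG9a, a knockdown of G9a, the histone H3 lysine 9 methyltransferase encoded by EHMT2. The sample labels call the knockdown siG9a while the title of the series calls it shG9a, and neither gives the time of harvest, the sequence used or the treatment of the control cells. A single line was used, and nothing in the labels says that the libraries of a group came from separate cultures. The p-values for the groups alone measure the spread between these libraries. Those of the fit paired by replicate number measure how far the difference of siG9a from control varies between numbers. Either spread may be technical.

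In the canonical branch of the pathway, a Wnt protein binds a Frizzled receptor together with LRP5 or LRP6. Without ligand, a destruction complex built on the scaffolds AXIN1 and APC holds GSK3B and casein kinase 1 against β-catenin (CTNNB1), which is phosphorylated and degraded. With ligand, Dishevelled proteins draw AXIN to the membrane, β-catenin accumulates, and in the nucleus it binds TCF/LEF factors at target genes such as AXIN2. Other branches do not need β-catenin and can run through ROR1, ROR2 or RYK, which need not act in these branches only. In the muscle lineage Wnt signals take part in the patterning of embryonic muscle and in the differentiation of myoblasts. G9a is reported to suppress Wnt signalling in the embryonal subtype of rhabdomyosarcoma, and the question put to these libraries is which Wnt pathway transcripts differ with knockdown in an alveolar line.

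EHMT2 checks the labels and was lower in siG9a with each replicate number. It measured 57.6, 68.1, 87.3 and 88.3 CPM (reads of the gene, scaled to the library's reads assigned to genes) in control replicates 1 to 4 and 19.6, 35.1, 33.1 and 58.5 CPM in siG9a. The groups overlapped, since siG9a replicate 4 lay above control replicate 1. The difference was −1.10 on the log2(CPM + 1) scale, with an adjusted p (limma) of 0.191 for the groups alone and 0.000472 with the replicate number as a block, called the paired fit here. The antisense gene EHMT2-AS1 overlaps the end of EHMT2, and whether the authors' counting used strand is not given in the sources used here.

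Depth sets what can be seen of these genes. Libraries held between 1458825 and 1938665 reads, so 1 read was worth 0.516 to 0.685 CPM and a count of 0 allows up to 3 reads, or 1.55 to 2.06 CPM. Of the 46 members, 45 had a read in some library, and 39 had a mean of at least 1 CPM over the 8 libraries and were tested. The 7 members not tested were the ligands WNT6 and WNT11, the inhibitors DKK1, DKK2, FRZB and WIF1, and the Dishevelled antagonist NKD1. WIF1 had no read in any library, and the other 6 had between 2 and 11 reads over all libraries together. The libraries of replicate 3 stood apart in both groups. MYOD1, a master regulator of skeletal muscle, measured 95.3 CPM in control replicate 3 and 817 to 864 CPM in the other control libraries, and 128 CPM in siG9a replicate 3 with 608 to 839 CPM in the others. Calls among the members are therefore also given without them. Mitochondrial genes also took a higher share of reads in siG9a than in control with each number, from 4.59 to 9.18% in control and from 5.21 to 13.7% in siG9a, and its part in the results was not tested.

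The Wnt genes spanned a wide range of levels in Rh41. The reads come from transcript ends, so CPM can be set side by side between genes without a correction for length. CTNNB1 was the highest member with a mean of 198 CPM over the 8 libraries, followed by the factors TCF7L2 at 117 CPM and TCF7L1 at 81.3 CPM, and the Dishevelled genes DVL3 at 73.3 CPM, DVL2 at 57.8 CPM and DVL1 at 49.4 CPM. Members with a mean of at least 10 CPM numbered 17, and only CTNNB1 and TCF7L2 passed 100 CPM. Ligands were low. WNT5A led them at a mean of 6.54 CPM, and none of the 6 reached 10 CPM. Among receptors FZD3 (34.2 CPM) and RYK (27.8 CPM) were the highest, and among extracellular inhibitors KREMEN1 (41.2 CPM) was. The order of neighbours within these spreads is not fixed, as TCF7L1 ranged from 17.2 to 156 CPM over the libraries and DVL3 from 41.7 to 115 CPM.

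**Figure D1:**
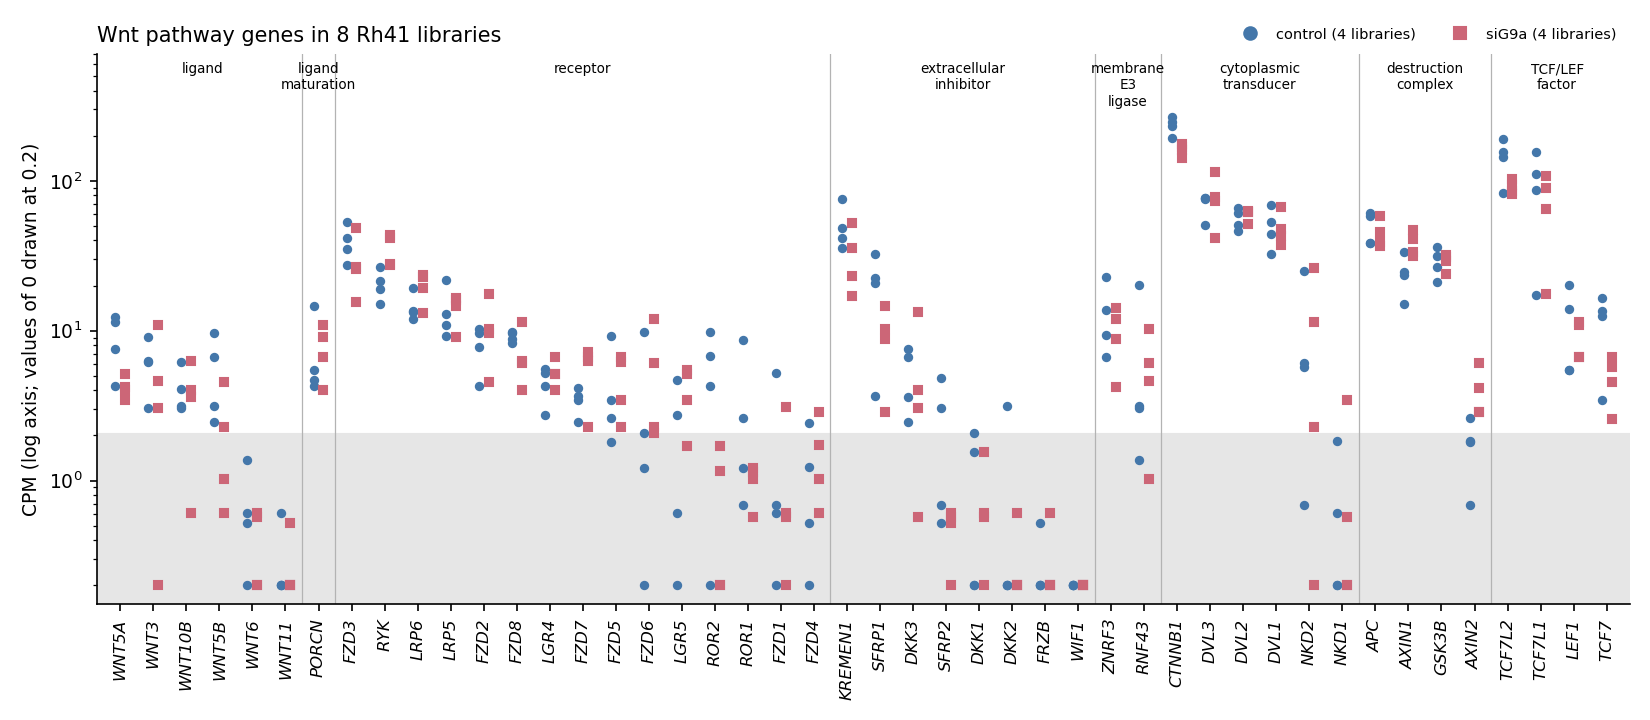
CPM (log axis) of the 46 Wnt pathway genes in each of the 4 control (circles) and 4 siG9a (squares) libraries, by role, with values of 0 drawn at 0.2 and the grey band covering levels up to that of 3 reads. Transducers, destruction complex genes and TCF/LEF factors hold most of the high values, while no ligand passes 12.3 CPM.

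In the paired fit the receptor RYK and the scaffold AXIN1 rose, while CTNNB1, the factor TCF7L2, the DKK co-receptor KREMEN1 and the receptor ROR2 fell. That is 6 of 39 tested members (15.4%), 2 higher and 4 lower, beside 11.4% of all 15092 genes tested (4.86% higher and 6.52% lower). Paired edgeR called 8 members, 2 higher and 6 lower, beside 11.3% of genes (4.73% higher and 6.59% lower), and paired DESeq2 called 1, lower, beside 6.2% of genes (4.08% lower). For the groups alone, limma called 0 members and 0% of all genes, and 5 members (12.8%) had an unadjusted p under 0.05 beside 12.5% of genes. Also for the groups alone, edgeR called 0 members and 0 genes, and DESeq2 called 0 members and 1.93% of genes. The median log2 change over the tested members was −0.15 beside 0.015 over all genes, with 17 members higher and 22 lower. That median was 0.23, −0.0054, −0.14 and −0.18 within replicate numbers 1 to 4, and between −0.22 and −0.036 when 1 library or 1 replicate number was left out. A direction shared by 4 of 4 replicate numbers was seen in 12 members (30.8%, 4 higher and 8 lower) beside 30.2% of genes (14.9% higher and 15.3% lower). Groups with no overlap were seen in 3 members (7.69%), RYK, AXIN2 and CTNNB1, beside 7.32% of genes. Of these, RYK and AXIN2 lay higher, as did 3.88% of genes, and CTNNB1 lower, as did 3.45%. These shares lie near those of all genes, so they say nothing particular about the pathway. In bulk RNA, fewer cells of a type and less RNA per cell cannot be told apart.

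**Figure D2:**
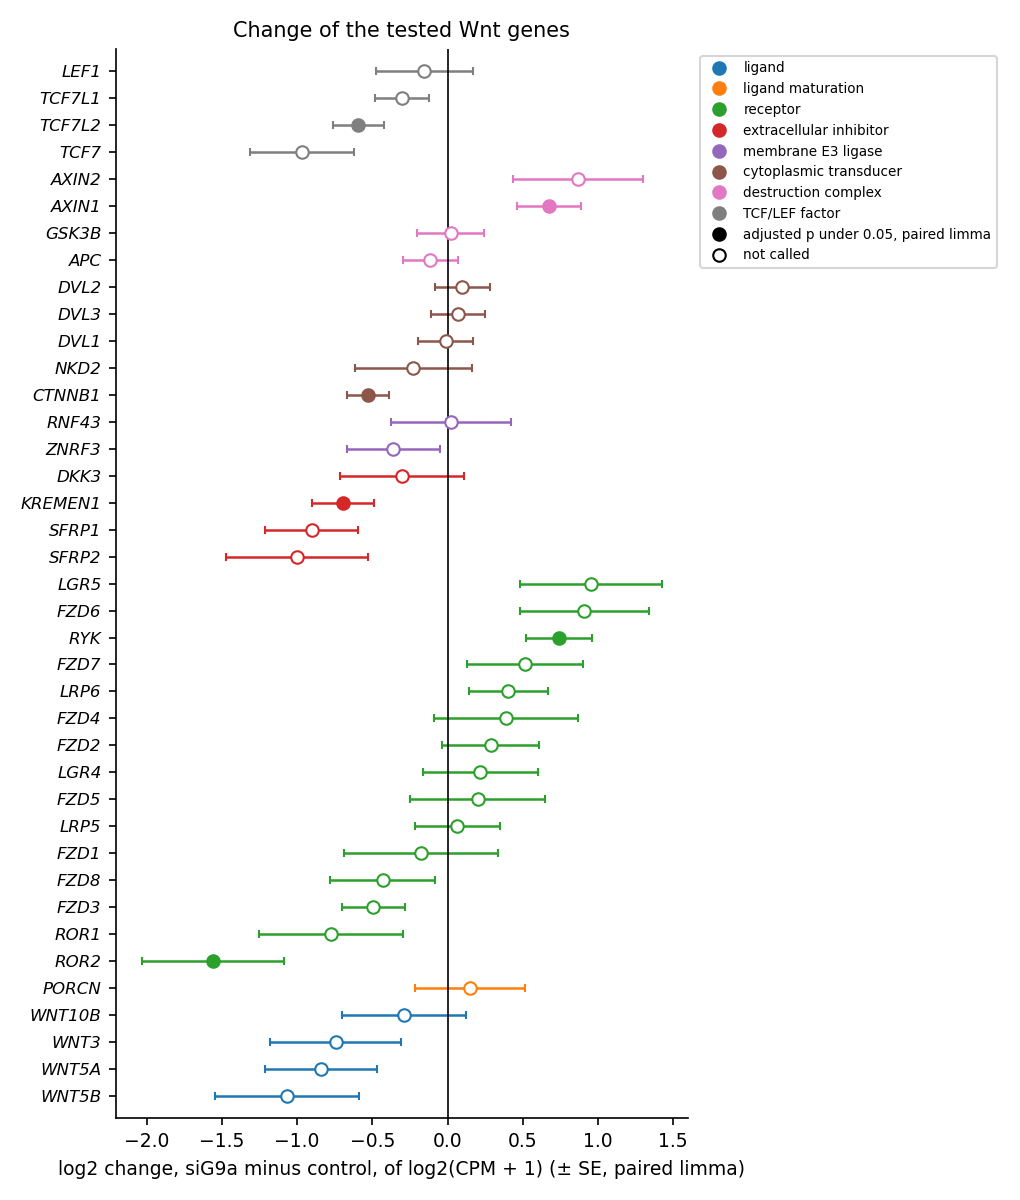
Log2 change (siG9a minus control, on the log2(CPM + 1) scale, ± SE of the paired limma fit) of the 39 tested Wnt genes, coloured by role, with filled points for an adjusted p under 0.05. The 4 ligands, 4 extracellular inhibitors and 4 TCF/LEF factors all lie below 0, and RYK and AXIN1 are the filled points above 0.

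The promoters of RYK and AXIN1, which rose, and of CTNNB1 and TCF7L2, which fell, are shown so that both directions can be compared in sequence. Each sequence runs from 250 bases before to 50 bases after a transcription start site in RefSeq (GRCh38.p14), 5′ to 3′ on the gene's strand, with CpG dinucleotides in capitals. RYK lies on the minus strand at chr3:134250810-134251109 and AXIN1 on the minus strand at chr16:352674-352973. CTNNB1 lies on the plus strand at chr3:41199255-41199554, and for TCF7L2 the most upstream of its starts is shown, on the plus strand at chr10:112949997-112950296.
RYK: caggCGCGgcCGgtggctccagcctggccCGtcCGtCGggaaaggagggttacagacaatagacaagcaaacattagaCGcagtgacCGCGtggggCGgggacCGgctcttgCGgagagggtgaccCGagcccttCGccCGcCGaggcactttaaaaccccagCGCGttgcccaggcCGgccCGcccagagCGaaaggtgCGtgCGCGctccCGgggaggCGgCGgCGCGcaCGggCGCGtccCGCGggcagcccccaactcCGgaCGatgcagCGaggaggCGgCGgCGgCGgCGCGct
AXIN1: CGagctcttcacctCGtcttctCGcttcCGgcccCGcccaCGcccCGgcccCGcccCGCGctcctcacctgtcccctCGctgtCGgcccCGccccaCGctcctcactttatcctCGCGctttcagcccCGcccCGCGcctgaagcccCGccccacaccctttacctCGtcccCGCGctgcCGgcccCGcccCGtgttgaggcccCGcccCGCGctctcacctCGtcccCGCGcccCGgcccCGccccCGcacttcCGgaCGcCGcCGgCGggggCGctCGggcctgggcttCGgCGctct
CTNNB1: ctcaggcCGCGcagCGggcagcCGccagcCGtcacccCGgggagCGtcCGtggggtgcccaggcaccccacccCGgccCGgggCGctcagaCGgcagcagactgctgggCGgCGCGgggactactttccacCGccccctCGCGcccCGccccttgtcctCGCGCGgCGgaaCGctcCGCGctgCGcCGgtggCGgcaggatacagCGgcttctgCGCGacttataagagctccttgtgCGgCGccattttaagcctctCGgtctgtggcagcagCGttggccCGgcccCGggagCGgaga
TCF7L2: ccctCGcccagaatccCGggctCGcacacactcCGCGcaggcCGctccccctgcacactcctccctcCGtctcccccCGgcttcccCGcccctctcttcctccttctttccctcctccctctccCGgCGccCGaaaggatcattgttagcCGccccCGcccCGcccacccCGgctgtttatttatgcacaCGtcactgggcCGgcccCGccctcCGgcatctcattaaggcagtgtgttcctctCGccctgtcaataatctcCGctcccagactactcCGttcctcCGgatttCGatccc

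The windows hold 43 CpG dinucleotides for RYK, 44 for AXIN1, 39 for CTNNB1 and 25 for the TCF7L2 start shown, and that of ROR2, also called, holds 42. Over 39 start sites of the 31 members matched by symbol, the median was 25 CpG dinucleotides, beside 14 over the 35116 promoters of the same length in the reference. At least 10 were present in 79.5% of the members' start sites and in 56.4% of all promoters. The TCF/LEF motif CTTTGAT or CTTTGAA, searched on both strands, was in 1 of the 39 windows (2.56%), that of DKK1, beside 6.86% of all promoters. Among the members with no window, and so not searched, were KREMEN1, AXIN2, LGR5, ZNRF3 and NKD1. All of these but KREMEN1 are counted below as feedback targets, so the share leaves out several targets of the pathway. The windows printed for genes that rose and for genes that fell all lay at or above the members' median of CpG dinucleotides, while the other two starts of TCF7L2 hold 5 and 7. None of the 4 windows printed holds these motif letters.

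The ligands among the members were lower in siG9a as a sum, but none passed the test. The summed level of the 6 ligands was 28.8, 23.1, 25.2 and 24.4 CPM in control replicates 1 to 4 and 14.96, 9.10, 14.9 and 21.2 CPM in siG9a. All siG9a sums lay below all control sums, with means of 25.4 ± 2.44 and 15.03 ± 4.95 CPM (SD over the 4 libraries of a group, as for every group mean that follows). The summed cytoplasmic transducers did not overlap either, at 405 to 433 CPM in control and 332 to 397 CPM in siG9a. CTNNB1 was the largest part of these sums, at 192 to 267 CPM in control and 143 to 177 CPM in siG9a. Of the 5 tested transducers it alone had no overlap (20% beside 7.32% of genes). All 4 tested ligands were lower, with a median log2 change of −0.79, and 0 were called, although WNT10B reversed without siG9a replicate 2. Gene by gene, 0 of the 4 had groups with no overlap, beside 7.32% of genes. Only WNT5A kept its direction in 4 of 4 replicate numbers (25% of tested ligands beside 30.2% of genes). WNT5A, which mostly acts without β-catenin, had 8.88 ± 3.71 CPM in control and 4.21 ± 0.717 CPM in siG9a, with an adjusted p (limma) of 0.154 paired and 0.401 for the groups alone. WNT3, a canonical ligand, had 6.15 ± 2.47 and 4.64 ± 4.59 CPM (log2 change −0.74, adjusted p (limma) 0.294 paired). WNT10B, also canonical, had 4.11 ± 1.45 and 3.63 ± 2.33 CPM (log2 change −0.29, adjusted p (limma) 0.719 paired). The remaining tested ligand, WNT5B, ranged from 0.61 to 9.60 CPM over the libraries. PORCN, the enzyme that attaches the lipid every Wnt needs for secretion, had 7.26 ± 4.91 and 7.66 ± 2.97 CPM, with an adjusted p (limma) of 0.847 paired.

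Receptors did not move together. Of 15 tested, 10 were higher and 5 lower, with a median log2 change of 0.22, and in the paired fit RYK rose and ROR2 fell (13.3% of receptors called, beside 11.4% of all genes). RYK is a Wnt receptor with an inactive kinase domain. It measured 26.7, 18.8, 21.5 and 15.1 CPM in control replicates 1 to 4 and 43.3, 27.8, 41.7 and 27.5 CPM in siG9a. The lowest siG9a library lay above the highest control library, and the ratio to the control of the same number was between 148 and 194%. In log2 terms RYK changed by 0.74 ± 0.22 (SE). The adjusted p (limma) was 0.0272 paired and 0.304 for the groups alone, with a two-sided exact permutation p of 0.0286, the smallest that 4 against 4 allows. The call was lost whichever replicate number was left out, with paired adjusted p (limma) between 0.0599 and 0.122, and the log2 change stayed between 0.68 and 0.81.

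ROR2, a receptor kinase for WNT5A, was near the limit of detection. It had 0, 7, 16 and 13 reads in control replicates 1 to 4 and 0, 0, 3 and 2 reads in siG9a. In CPM these are 0, 4.25, 9.84 and 6.75 in control and 0, 0, 1.71 and 1.15 in siG9a. Control replicate 1 had no read, so the groups overlapped, and replicate 3 was the highest library of both groups. This is a log2 change of −1.56 ± 0.47 (SE). Its adjusted p (limma) was 0.0313 paired and 0.385 for the groups alone (exact permutation p = 0.143, two-sided). Without replicate 1 the paired adjusted p (limma) was 0.00941, and without replicate 2, 3 or 4 it was 0.195, 0.1497 and 0.119. With a pseudocount of 0.1 in place of 1 it was 0.152. ROR1, the other receptor of this pair, ranged from 0.57 to 8.61 CPM and was not called.

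No Frizzled gene was called. The 8 Frizzled genes had a median log2 change of 0.24, 5 higher and 3 lower, and their summed level was 53.5 to 90.4 CPM in control and 56.8 to 76.5 CPM in siG9a, so the groups overlapped. FZD3, the highest, had 39.4 ± 10.996 CPM in control and 29.1 ± 13.9 CPM in siG9a, was lower with each replicate number, and had a paired adjusted p (limma) of 0.131. FZD6 was higher with each number, from 0 to 9.84 CPM in control and from 2.06 to 11.99 CPM in siG9a (paired adjusted p (limma) 0.183, and 0.220 without replicate 3), a gene chosen after its values were seen. LRP6, the co-receptor of canonical signals, had 14.5 ± 3.20 and 19.7 ± 4.72 CPM, with a paired adjusted p (limma) of 0.363. LRP5 ranged from 9.22 to 21.9 CPM in control and from 9.13 to 16.5 CPM in siG9a. LGR4 and LGR5, receptors for R-spondins, stayed at or below 6.66 CPM in every library. LGR5, named after its values were seen, had 0 to 10 reads per library. It had the highest log2 change of the tested members, 0.95, with a paired adjusted p (limma) of 0.206.

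On the log2(CPM + 1) scale the extracellular inhibitors that could be tested were all lower in siG9a. DKK3 reversed with edgeR and DESeq2 for the groups alone, but not with the replicate block. Their median log2 change over 4 tested members was −0.80, and 1 was called in the paired fit. KREMEN1, the single-pass receptor that with DKK proteins removes LRP6 from the surface, measured 48.7, 41.3, 35.7 and 75.8 CPM in control replicates 1 to 4 and 23.2, 35.7, 17.1 and 52.2 CPM in siG9a. Each siG9a library lay below the control of its number, at 47.7 to 86.4% of it, but siG9a replicates 2 and 4 lay inside the control range. The fitted log2 change, −0.70 ± 0.21 (SE), had an adjusted p (limma) of 0.0273 paired and 0.447 for the groups alone (exact permutation p = 0.2, two-sided). The paired adjusted p (limma) was 0.0466 without replicate 2, and 0.133, 0.136 and 0.0539 without replicates 1, 3 and 4.

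SFRP1, a secreted decoy that binds Wnt proteins, had 19.9 ± 12.04 CPM in control and 9.12 ± 4.84 CPM in siG9a and was lower with each number. Its log2 change was −0.90, with a paired adjusted p of 0.0591 with limma and 0.0228 with edgeR. It was low in replicate 3 of both groups, at 3.69 and 2.85 CPM, and without replicate 3 the paired adjusted p (limma) was 0.0333. Without replicates 1, 2 and 4 it was 0.208, 0.134 and 0.259, and paired DESeq2 gave an adjusted p of 0.124 with all libraries. DKK3, a divergent member of the Dickkopf family, had 5.08 ± 2.42 and 5.26 ± 5.63 CPM and a log2 change of −0.30, of opposite sign to the difference of means, with a paired adjusted p (limma) of 0.710. SFRP2 had at most 4.86 CPM in any library. DKK1 and DKK2, the Dickkopf proteins that bind LRP6, had 11 and 7 reads over the 8 libraries, FRZB had 2 and WIF1 had 0, so no difference was detectable for them at this depth.

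RNF43 and ZNRF3, membrane E3 ligases that remove Frizzled receptors and are themselves Wnt targets, did not pass the test. ZNRF3 had 13.1 ± 7.04 CPM in control and 9.83 ± 4.36 CPM in siG9a, with a paired adjusted p (limma) of 0.508. RNF43 had 6.96 ± 8.93 and 5.49 ± 3.83 CPM. Its log2 change of 0.03 has the opposite sign to the difference of means, since 1 control library, replicate 3, stood at 20.3 CPM and the others between 1.37 and 3.12 CPM. Without replicate 3 the log2 change was 0.34, with a paired adjusted p (limma) of 0.741. SUPT4H1 and AC004687.2 overlap the last 1000 bases of RNF43 on the same strand, and TSPOAP1-AS1 overlaps them on the other.

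Among the cytoplasmic transducers CTNNB1 fell. β-catenin is both the effector of the canonical branch and a part of cell junctions. CTNNB1 measured 267, 234, 192 and 247 CPM in control replicates 1 to 4 and 177, 159.8, 143 and 167 CPM in siG9a. Every siG9a library lay below every control library, at 66.4 to 74.2% of the control of its number, and replicate 3 was the lowest of both groups. The fitted log2 change of CTNNB1 was −0.53 ± 0.14 (SE). It had an adjusted p (limma) of 0.0147 paired and 0.274 for the groups alone, and an exact permutation p of 0.0286, two-sided. Paired edgeR gave 0.0176 and paired DESeq2 0.0204 as adjusted p, and CTNNB1 was the only member called by all 3 paired tools. The paired adjusted p (limma) was 0.0261 without replicate 4, and 0.0598, 0.0946 and 0.0522 without replicates 1, 2 and 3, with a log2 change from −0.56 to −0.51. ULK4 overlaps the last 1000 bases of CTNNB1 on the other strand, and without strand in the counting their reads could not be told apart.

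Dishevelled genes, which carry the signal from Frizzled to AXIN, were not called. DVL2 had 56.0 ± 9.13 CPM in control and 59.7 ± 5.39 CPM in siG9a, and DVL3 had 69.8 ± 12.9 and 76.8 ± 29.8 CPM, with paired adjusted p (limma) of 0.787 and 0.855. DVL1 ranged from 32.7 to 69.5 CPM in control and from 37.3 to 67.4 CPM in siG9a. NKD2, an antagonist of Dishevelled, went with the replicate number, with 25.2 and 26.3 CPM in replicate 3 of control and siG9a and 0 to 11.5 CPM in the other libraries. Its paired adjusted p (limma) was 0.774 with all libraries and 0.769 without replicate 3.

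In the destruction complex the paired fit called AXIN1, higher, and did not call APC or GSK3B. Paired DESeq2 did not call AXIN1 either (adjusted p 0.154). AXIN1, the scaffold whose amount is thought to limit the complex, measured 33.6, 23.7, 24.6 and 15.1 CPM in control replicates 1 to 4 and 46.9, 41.2, 33.7 and 31.5 CPM in siG9a. Each siG9a library lay above the control of its number, at 137 to 209% of it. The groups overlapped only where siG9a replicate 4 fell below control replicate 1. On the log2 scale this was 0.67 ± 0.21 (SE), and the adjusted p (limma) was 0.0399 paired and 0.357 for the groups alone (exact permutation p = 0.0571, two-sided). Whichever replicate number was left out, the call was lost, as the paired adjusted p (limma) lay between 0.0710 and 0.182, with log2 changes from 0.56 to 0.75, and with a pseudocount of 0.1 it was 0.0505.

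AXIN2, the second scaffold and the most used marker of canonical target activity, was rarely read. It had 1, 3, 3 and 5 reads in control replicates 1 to 4 and 8, 10, 5 and 5 reads in siG9a. In CPM these are 0.69, 1.82, 1.84 and 2.60 in control and 4.13, 6.05, 2.85 and 2.87 in siG9a. All siG9a values lay above all control values, and the gap was widest in replicates 1 and 2 and smallest in replicate 4. AXIN2 differed by 0.87 ± 0.43 (SE) in log2, which missed the threshold at an adjusted p (limma) of 0.207 paired and 0.415 for the groups alone. It had an exact permutation p of 0.0286, two-sided, not adjusted over genes. The 95% Wilson interval for 5 reads in siG9a replicate 4, 1.22 to 6.71 CPM, covers 3 of the 4 control values, and such intervals cover counting error only.

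APC, the large scaffold of the complex, had 49.1 ± 12.5 CPM in control and 44.9 ± 9.48 CPM in siG9a. AC008575.1 overlaps the last 1000 bases of APC on the same strand. GSK3B, the kinase that marks β-catenin, had 28.9 ± 6.44 and 29.02 ± 3.54 CPM. Their paired adjusted p (limma) were 0.759 and 0.966.

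**Figure D3:**
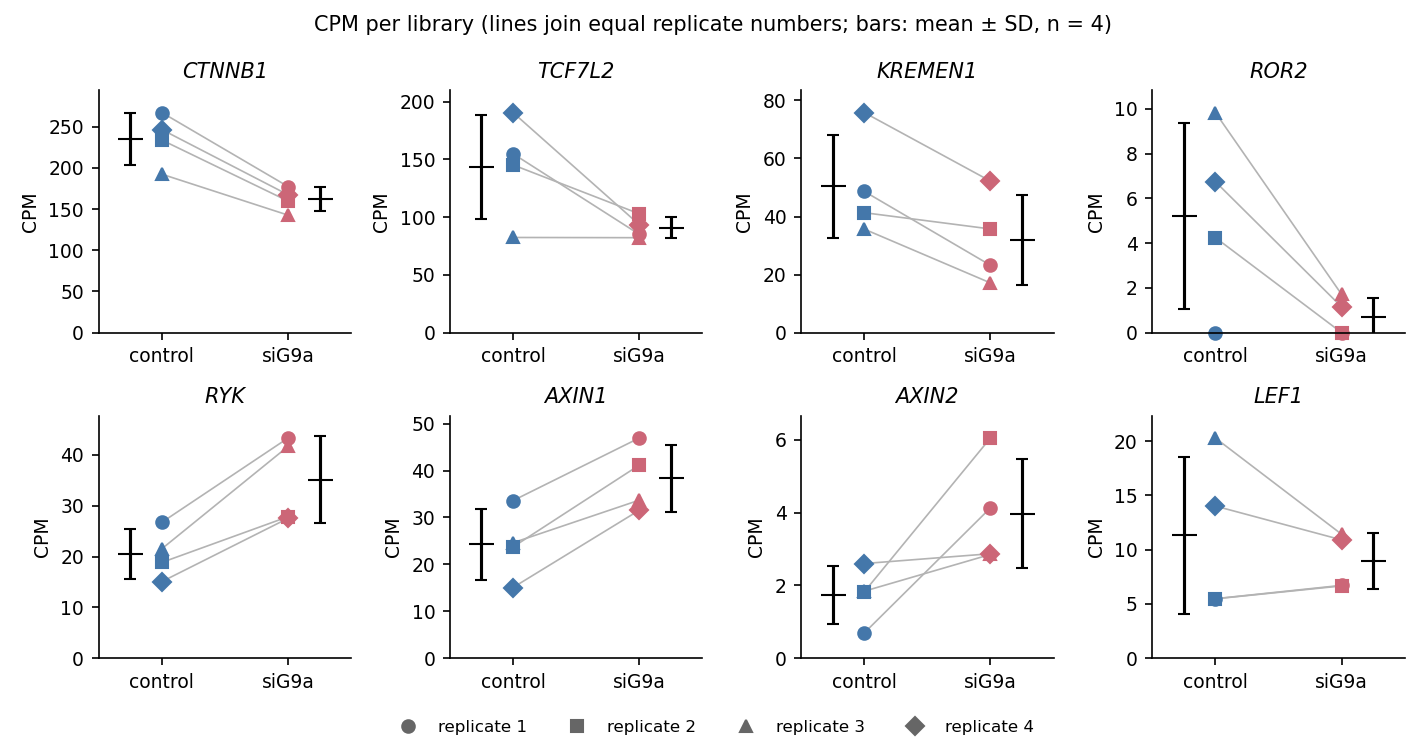
CPM per library of the 8 Wnt genes described with every value, control (blue) and siG9a (red), with lines joining equal replicate numbers and bars for mean ± SD (n = 4, the lower bar of ROR2 in siG9a being cut off at 0). CTNNB1, RYK and AXIN2 have no overlap between groups, and TCF7L2 replicate 3 is flat.

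With all libraries the 4 TCF/LEF factors were lower in siG9a on the log2(CPM + 1) scale. Paired limma called 1 of them, TCF7L2, beside 11.4% of all genes, and paired edgeR called 2, TCF7L2 and TCF7, beside 11.3%. The direction of LEF1 rested on few libraries. For the groups alone it turned to 0.17 without control replicate 3 and to 0.0056 without control replicate 4. It was 0.053 without replicate 3 of both groups, with or without the block. For the groups alone TCF7L1 turned to 0.066 without control replicate 4 and to 0.25 without siG9a replicate 3. In no fit with the block did TCF7L1 reverse, and it was −0.42 without replicate 3 of both groups. The median log2 change of the 4 was −0.45, and their summed level was 133 to 373 CPM in control and 116 to 202 CPM in siG9a. TCF7L2, the most abundant of the 4 over all libraries, measured 155, 145, 82.4 and 191 CPM in control replicates 1 to 4 and 85.1, 103, 82.2 and 93.5 CPM in siG9a. Control replicate 3 was level with siG9a replicate 3, and the other control libraries lay above all siG9a libraries. Across the libraries TCF7L2 fell by 0.59 ± 0.17 (SE) on the log2 scale, at an adjusted p (limma) of 0.0229 paired and 0.364 for the groups alone (exact permutation p = 0.114, two-sided). Without replicate 3 the log2 change was −0.79 and the paired adjusted p (limma) 0.0121. Without replicates 1, 2 or 4 it was 0.125, 0.0973 and 0.121.

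TCF7L1, mostly a repressor of target genes, had 92.8 ± 58.0 CPM in control and 69.9 ± 39.0 CPM in siG9a, with a paired adjusted p (limma) of 0.306. In replicate 3 it stood at 17.2 CPM in control and 17.7 CPM in siG9a, far below the other libraries, and without replicate 3 its log2 change was −0.42 with a paired adjusted p (limma) of 0.226. TCF7, an activator and a target, measured 3.43, 16.4, 13.5 and 12.5 CPM in control and 2.58, 6.66, 4.57 and 5.74 CPM in siG9a. It was lower with each number, with a paired adjusted p of 0.0727 with limma and 0.0490 with edgeR, and is named after its values were seen. SKP1 overlaps its end on the other strand. LEF1, also a target, measured 5.48, 5.47, 20.3 and 14.0 CPM in control and 6.71, 6.66, 11.4 and 10.9 CPM in siG9a. It was higher with numbers 1 and 2 and lower with 3 and 4, with a log2 change of −0.15 ± 0.32 (SE) and a paired adjusted p (limma) of 0.819.

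The members known as feedback targets were not shifted together. The 8 are AXIN2, LEF1, TCF7, NKD1, LGR5, RNF43, ZNRF3 and DKK1, of which 6 were tested, 3 higher and 3 lower. RNF43, counted as higher at 0.03, was lower with edgeR, paired or not, and with DESeq2 for the groups alone. The median below counts it as higher. The median log2 change of the 6 was −0.06. Paired limma called 0 of them and paired edgeR 1, TCF7, lower. With all 4 replicate numbers AXIN2 was higher and TCF7 was lower in siG9a.

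Outside the members, further genes of the pathway were read in the same way. A list of 75 ligand, receptor, inhibitor and effector genes had 50 tested, of which in the paired fit 1 was higher and 4 lower (10% beside 11.4% of all genes). Groups with no overlap were seen in 3 of the 50 (6%), CTBP2, CSNK1A1 and GPC4, beside 7.32% of genes. CTBP2, a co-repressor, had 269 ± 93.9 CPM in control and 156 ± 19.4 CPM in siG9a, with no overlap, a log2 change of −0.73 and a paired adjusted p (limma) of 0.00246. CSNK1A1, the casein kinase 1 of the destruction complex, had 289 ± 86.9 and 182 ± 11.1 CPM (log2 change −0.62, paired adjusted p (limma) 0.00872), and without replicate 4 the paired adjusted p (limma) was 0.0539. Control replicate 4 stood above the other control libraries in both genes. It was at 407 CPM beside 205 to 248 CPM for CTBP2, and at 415 CPM beside 223 to 272 CPM for CSNK1A1. GPC4, a glypican that binds Wnt at the surface, had 18.2 ± 4.83 and 7.29 ± 3.11 CPM (log2 change −1.28, paired adjusted p (limma) 0.0123), and without replicate 4 these were −0.86 and 0.103. The other calls, named after their values were seen, were WNT4, lower, and PYGO2, a cofactor of β-catenin, higher. WNT4 had 6, 5, 0 and 5 reads in control replicates 1 to 4 and 0 in every siG9a library. Its paired adjusted p (limma) was 0.0430, and up to 0.190 with 1 replicate number left out. Of the other WNT genes tested in this list, WNT2B (log2 change 0.29) and WNT7B (0.58) were higher and WNT9A (−1.32) lower, none called. PYGO2 had 86.8 ± 12.03 and 124 ± 29.3 CPM, and its groups overlapped. The paired adjusted p of PYGO2 was 0.0485 with limma, 0.0503 with edgeR and 0.131 with DESeq2. Its call was lost whichever replicate number was left out (paired adjusted p (limma) 0.0547 to 0.231). ZRANB1 overlaps the end of CTBP2 on the other strand.

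Known targets of β-catenin outside the members changed in both directions. Of 33 listed, 23 were tested, and in the paired fit 2 rose and 7 fell (39.1% beside 11.4% of all genes, a difference that was not tested), while limma for the groups alone called 0 of them. Groups with no overlap were seen in 1 of the 23 (4.35%), CD44, beside 7.32% of genes. A direction shared by 4 of 4 replicate numbers was seen in 11 of the 23 (47.8%) beside 30.2% of genes. CD44, an adhesion receptor, measured 61.7, 43.8, 71.3 and 48.3 CPM in control replicates 1 to 4 and 34.0, 29.7, 32.5 and 23.5 CPM in siG9a, with no overlap. In log2 terms it changed by −0.88 ± 0.19 (SE). The adjusted p (limma) was 0.00393 paired and 0.186 for the groups alone, and the paired call held whichever replicate number was left out. CCND1, encoding cyclin D1, measured 173, 135.5, 212 and 106 CPM in control and 19.6, 65.4, 166 and 82.6 CPM in siG9a. The groups overlapped through siG9a replicate 3, the paired adjusted p was 0.00449 with limma and 0.268 with DESeq2, and LTO1 overlaps its end on the other strand. Its log2 change was −1.20 with all libraries and −0.58 without replicate 1, where the paired adjusted p (limma) was 0.0592.

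MSX1, a homeobox gene, had 50.5 ± 23.3 CPM in control and 27.8 ± 9.36 CPM in siG9a, with a log2 change of −0.81 and a paired adjusted p (limma) of 0.0118, which was 0.0730 without replicate 2 and 0.112 without replicate 3. Further calls, named after their values were seen, included JUN, RUNX2 and NRCAM, lower, and BMP4 and CYR61, higher. Many of these genes answer to other pathways too, so the list is not specific to Wnt. Without replicate 3 the paired fit called 5 of the 23, 2 higher and 3 lower, beside 7.87% of all genes. Paired DESeq2, with all libraries, called 2 of the 23 beside 6.2% of genes.

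In the libraries of replicate 3 several Wnt genes stood apart from the other libraries, whichever the group. FZD1, SFRP1 and TCF7L1 were lower there than the mean of the other 3 libraries by over 1 on the log2(CPM + 1) scale in both groups (7.69% of members beside 7.23% of all genes). FZD6, ROR2, RNF43 and NKD2 were higher in the same way (10.3% beside 5.68%). Without these libraries the paired fit called 2 members, both lower, TCF7L2 and SFRP1, beside 7.87% of all genes (2.91% higher and 4.96% lower). For the groups alone it called 0 members beside 2.77% of genes.

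**Figure D4:**
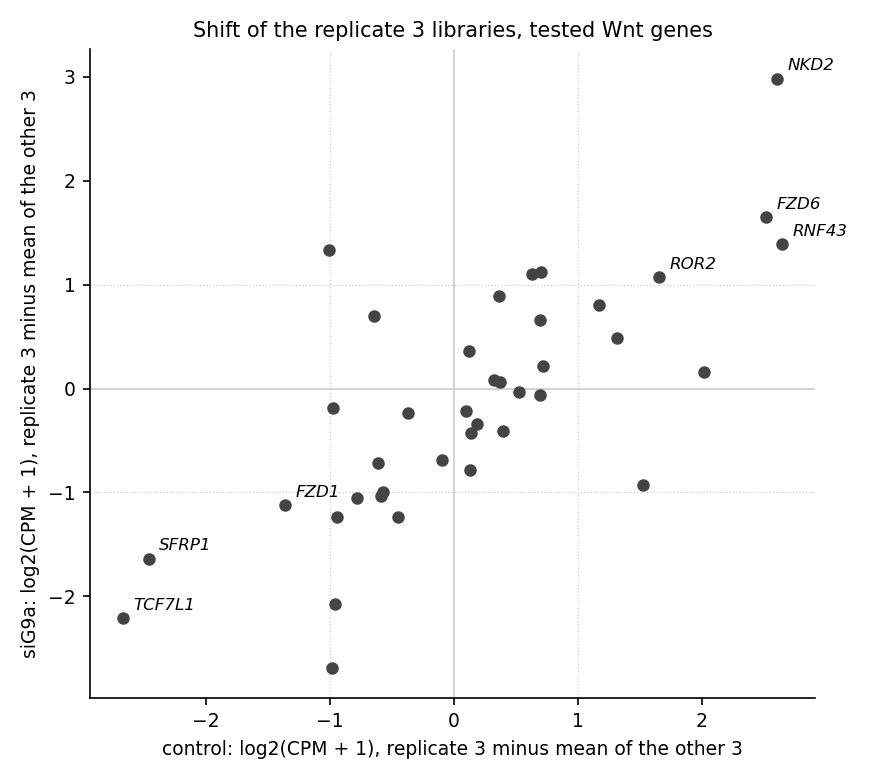
Shift of the replicate 3 library from the mean of the other 3 libraries, in log2(CPM + 1), in control (horizontal axis) and in siG9a (vertical axis), each point being 1 of the 39 tested Wnt genes, with dotted lines at −1 and 1. The named genes passed 1 in both groups, and TCF7L1 and NKD2 are at the ends.

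Marker lists of other cell types were summed in the same libraries. The 9 muscle markers in the table summed to 359 CPM in control replicate 3 and to 2409 to 2783 CPM in the other control libraries. In siG9a they summed to 248 CPM in replicate 3 and to 1083 to 1640 CPM in the others, and in the paired fit 5 of 8 tested muscle markers fell, beside 6.52% of all genes. The 8 neural markers ran the other way, at 9615 and 8936 CPM in replicate 3 of control and siG9a. Replicate 1 also stood apart in both groups, at 187 and 223 CPM, beside 1825 to 2955 CPM in replicates 2 and 4. Paired limma called 0 of 5 tested neural markers. Most of these sums came from the neurofilament genes NEFM, at 8046 and 7625 CPM in replicate 3 of control and siG9a, and NEFL, at 1557 and 1302 CPM. Fibroblast and stromal markers summed to 119 to 410 CPM in control and 52.5 to 329 CPM in siG9a, with 1 of 6 tested called lower in the paired fit and DCN, LUM and THY1 at 3 reads or fewer in every library. The epithelial list summed to 12.4 to 75.6 CPM in control and 24.1 to 44.5 CPM in siG9a, with 1 of 5 tested called lower in the paired fit. The endothelial list did not pass 2.08 CPM and the leukocyte list 11.99 CPM in any library, with PTPRC, CD3E and CD14 at 3 reads or fewer. The part of the muscle and neural differences in the values of the Wnt genes was not tested.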

How the data were processed

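RNA was measured by QuantSeq, a 3′ mRNA method, in 8 Rh41 libraries. The submitters' processing notes name FastQC 0.11.8, Trim Galore, STAR 2.5.0a, HTSeq 0.8.0, edgeR 3.28 and the builds GRCh38 and hg19, with no role for either build, so no coordinates of the files are used. The authors deposited CPM per gene, scaled to each library's total. In every library 100% of values were whole multiples of 1 read (tolerance 0.0051 CPM), and the whole reads recovered in this way served the count tests. A further 8 value columns in the deposited table, unnamed and empty, were not used. Groups came from the sample labels.

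The main test was limma 3.58.1 (R 4.3.3) on log2(CPM + 1), with group as the only term, in a two-sided moderated test with trend, for the 15092 genes whose mean reached 1 CPM, adjusted over all of them by Benjamini-Hochberg with a threshold of 0.05. The pseudocount of 1 understates the change of low genes. A paired fit added the replicate number as a block. Deviations from the group means correlated between equally numbered libraries at 0.500, 0.104, 0.673 and 0.130 across genes, each over 0.1, so the numbers were taken to pair the libraries, although the labels do not say what a number marks. The unequal pair of control 2 and siG9a 4, at 0.144, lay above the equal pairs of numbers 2 and 4, so not every library correlated best with its own number. edgeR 4.0.16 (quasi-likelihood, TMM) and DESeq2 1.42.0 ran on the recovered reads, and the limma and edgeR steps were first tested on simulated data. Single genes were compared by exact permutation tests over the libraries. Gene overlaps came from GENCODE 29 and promoters from RefSeq (GRCh38.p14).

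The members and lists were chosen with earlier results of these data known. Members called by limma in either fit, those without overlap, AXIN2 and LEF1 are given in full, and in each role the 3 members with the highest mean by group means. Of other genes, the 6 with the smallest paired adjusted p are given. Alternatives were other pseudocounts, filters, scalings, tools and left-out libraries. A gene counted in the list of targets is not reported here by name.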

Additional observations from a re-analysis of the deposited data

Results flagged for a closer look

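Within each group of 4 libraries, the gap of the highest or lowest library to its neighbour was set against the group's range (Dixon's ratio, at its 95% critical value). Of 78 groups of 4 libraries over the 39 tested members, 6 passed, where chance gives about 3.9, and 2 of the 6 were a replicate 3 library. PORCN was at 14.6 CPM in control replicate 2, with the others between 4.30 and 5.48 CPM. FZD1 was at 5.19 CPM in control replicate 4, with the others between 0 and 0.69 CPM. SFRP2 had 0 CPM in siG9a replicate 4, with the others between 0.52 and 0.61 CPM, a difference of 1 read. RNF43 was at 20.3 CPM in control replicate 3, with the others between 1.37 and 3.12 CPM. DVL2 was at 51.6 CPM in siG9a replicate 4, with the others between 61.9 and 63.0 CPM. DVL3 was at 50.4 CPM in control replicate 3, with the others between 75.4 and 76.9 CPM.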

How the results depend on the processing

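For the groups alone, 0 members were called in either direction under every alternative run, single libraries left out included, and the median log2 change of the members kept its sign. All genes called numbered 18 with no filter, 292 with DESeq2, 0 to 300 where 1 library was left out (300 without control replicate 3 and 2 without siG9a replicate 4), and 415 without replicate 3. With the replicate block, the members called higher numbered 2 with limma, with edgeR, with a pseudocount of 5, with median-ratio scaling and with quantile normalization, and 1 with a pseudocount of 0.1. Those called lower numbered 4, 6 with edgeR, 1 with DESeq2, which gave no adjusted p for 7 members, 3 with a pseudocount of 0.1 and 4 under the other three. All genes called with the block numbered 1717, 1709 with edgeR, 936 with DESeq2, 1363 and 1710 with pseudocounts of 0.1 and 5, 1692 with median-ratio scaling and 1688 with quantile normalization. With the block and replicate 1, 2, 3 or 4 left out, 972, 653, 1180 and 1392 genes were called, 0 members were higher and 2, 1, 2 and 1 were lower. Block settings other than the planned ones (pseudocounts and scalings) were chosen after seeing the data.

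Other Wnt pathway and target genes called, 0 for the groups alone, numbered 14 with the block, 12 with edgeR and the block, 5 with DESeq2 and the block, 10 and 14 with pseudocounts of 0.1 and 5, 13 with median-ratio scaling, 15 with quantile normalization and 7, 5, 10 and 9 with the block and replicate 1, 2, 3 or 4 left out. Without the block they numbered 1 without control replicate 3 and 2 without replicate 3. The log2 change of EHMT2 passed the threshold with the block, at −1.10 with limma and with edgeR, −1.12 with DESeq2, −1.12 and −1.01 with pseudocounts of 0.1 and 5, −1.11 with median-ratio scaling, −1.07 with quantile normalization and −0.96, −1.16, −1.01 and −1.27 with the block and replicate 1, 2, 3 or 4 left out.

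Of 29 named genes and 833 values under alternatives, 39 reversed in sign, all in 10 genes with small changes, none of them called in any of these. RNF43 reversed to −0.027 with a pseudocount of 5, with or without the block, −0.35 with edgeR, −0.088 with edgeR and the block and −0.36 with DESeq2. DKK3 reversed to 0.077 with edgeR and 0.042 with DESeq2, and GSK3B to −0.0023 with DESeq2. With the block and 1 number left out, reversed values were −0.0083 for DVL2, −0.11 for DVL3 and −0.054 for GSK3B (replicate 1), −0.14 for GSK3B, −0.23 for RNF43 and 0.053 for WNT10B (replicate 2), 0.053 for LEF1 and −0.19 for PORCN (replicate 3) and −0.11 for RNF43 (replicate 4). Without the block, leaving out 1 library or both of replicate 3, the log2 change ran from −0.37 to 0.69 for RNF43, −0.85 to 0.22 for DKK3, −0.11 to 0.15 for GSK3B, −0.15 to 0.33 for DVL3, −0.40 to 0.17 for LEF1, −0.19 to 0.51 for PORCN, −0.24 to 0.0020 for APC, −0.97 to 0.25 for TCF7L1 and −0.57 to 0.15 for WNT10B. The cause of these changes was not tested. Each member has 1 identifier, so summing identifiers changed nothing. Depth limits the members below 3 reads, for which no difference was detectable.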
